A study of Arabidopsis thaliana with 10 samples.

Results

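Transcript levels of 10 genes of 1 mitogen-activated protein kinase (MAPK) cascade were examined in whole seedlings of Arabidopsis thaliana exposed to jasmonic acid (JA). The genes were 7 MAPK kinase kinases (MAPKKK14, MAPKKK15, MAPKKK17, MAPKKK18, MAPKKK19, MAPKKK20 and MAPKKK21), the MAPK kinase MKK3 and the MAPKs MPK1 and MPK2, taken by gene identifier out of the 32833 genes in each table. They were chosen by their levels and fold changes between JA and ctrl libraries of Set1 and Set2, which were already known, so the comparison of JA with ctrl is a description for them, and counts of calls are given only beside the share over all genes, with nothing read from them. All libraries came from 10-day-old whole seedlings of the Col-0 accession, with no mutation or transgene named in the labels. Seedlings of Set1_2hJA (n = 2 libraries) and Set2_2hJA (n = 3) received methyl jasmonate vapour for 2 h, and seedlings of Set1_ctrl (n = 2) and Set2_ctrl (n = 3) were left untreated. The study's methods call the replicates biological, and the labels do not say what plates or growth batches they share, so the spread between libraries may be partly technical.

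In a MAPK cascade, a MAPKKK phosphorylates a MAPK kinase, which phosphorylates a MAPK, and the MAPK then acts on transcription factors, enzymes and other proteins. The MAPKKKs of this group can act through MKK3, the MAPK kinase that activates the closely related C-group MAPKs MPK1, MPK2, MPK7 and MPK14. Whether each acts through MKK3 alone was not examined. The module is known for abscisic acid signalling, in which MAPKKK17 and MAPKKK18 are made in response to the hormone, and for responses to wounding and insect feeding, in which JA takes part. Because kinases work by phosphorylation, transcript levels say nothing on their own about cascade activity. JA induces genes through MYC2 and related bHLH factors, which bind the G-box, the hexamer CACGTG.

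Both experiments held a JA library that stood apart. In Set2_2hJA replicate 1, genes that had no count in any Set1 library (4821 genes of at least 300 bases) held 8.95 counts per kb, against 0.427 and 0.22 counts per kb in the other Set2_2hJA libraries and 0.368 to 0.852 counts per kb in the Set2_ctrl libraries. Of those genes, 77.3% had a count in that library. Set1_2hJA replicate 1 was set apart by the seed storage genes CRA1 and CRU3, so that the 3 seed and pollen markers summed to 15.0 CPM, against 0.299 CPM in replicate 2, 0.712 and 0.769 CPM in Set1_ctrl, and 0.138 to 4.52 CPM in the Set2 libraries. Without it MAPKKK21 and MAPKKK17 were still called in Set1. Total counts were 12147941 to 17200426 in Set1 and 6333822 to 7774547 in Set2. The summed CPM of 3 known JA targets (JAZ10, OPR3 and LOX3) was 518 to 782 in Set1_2hJA and 30.2 to 36.6 in Set1_ctrl, and 323 to 671 in Set2_2hJA and 30.8 to 45.1 in Set2_ctrl, so each JA library carried the response that its label names. CPM denotes counts scaled to a common library total with TMM factors over the 10 libraries. Markers of green shoot summed to 28400 to 30000 CPM in Set1_2hJA, 44700 to 45000 in Set1_ctrl, 17300 to 24700 in Set2_2hJA and 23500 to 26300 in Set2_ctrl. The 4 root markers summed to 25.6 to 39.9 CPM in Set1_2hJA, 45.7 to 74.3 in Set1_ctrl, 39.1 to 54.0 in Set2_2hJA and 31.6 to 47.9 in Set2_ctrl. The part of these differences in the results below was not tested. Fewer cells of a type and less RNA per cell cannot be told apart in whole seedlings.

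All 7 MAPKKK genes consist of 1 exon in the RefSeq annotation of TAIR10.1, and they are spread over the 5 chromosomes. MAPKKK14 (AT2G30040) lies at chr2:12821569-12823169 on the plus strand and MAPKKK15 (AT5G55090) at chr5:22356852-22358413 on the minus strand. MAPKKK17 (AT2G32510) lies at chr2:13798561-13800099 on the minus strand and MAPKKK18 (AT1G05100) at chr1:1469541-1470881 on the plus strand. MAPKKK19 (AT5G67080) lies at chr5:26772644-26773979 on the plus strand, MAPKKK20 (AT3G50310) at chr3:18648075-18649521 on the minus strand and MAPKKK21 (AT4G36950) at chr4:17422538-17423953 on the minus strand. MKK3 (AT5G40440) lies at chr5:16181628-16184827, MPK1 (AT1G10210) at chr1:3349082-3351180 and MPK2 (AT1G59580) at chr1:21884018-21886051, all on the plus strand. MAPKKK19 overlaps AT5G67090 and MKK3 overlaps AT5G06055 and AT5G40450, each on the opposite strand, and whether the counting used strand is not stated, so their counts may include reads of these neighbours. Coding sequences were most alike between MPK1 and MPK2 (84.3% of aligned bases identical) and, among the MAPKKKs, between MAPKKK19 and MAPKKK20 (76.8%), MAPKKK17 and MAPKKK18 (68.3%), MAPKKK20 and MAPKKK21 (65.3%) and MAPKKK19 and MAPKKK21 (64.6%). Over all 21 MAPKKK pairs the median was 49.9%. Each member's expected count was whole (within 0.005) in all 10 libraries.

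The 250 bases before the annotated start held a G-box in 5 of the 10 genes, and these were MAPKKK17, MAPKKK18, MAPKKK19, MAPKKK20 and MAPKKK21. The same window held a G-box in 1780 of 27443 promoters (6.49%). The 5 promoters are shown because 3 of them share far more than the hexamer: 250 bases each, 5′ to 3′ on the strand of the gene, with CACGTG and its variant CACGTT in capitals.
MAPKKK19: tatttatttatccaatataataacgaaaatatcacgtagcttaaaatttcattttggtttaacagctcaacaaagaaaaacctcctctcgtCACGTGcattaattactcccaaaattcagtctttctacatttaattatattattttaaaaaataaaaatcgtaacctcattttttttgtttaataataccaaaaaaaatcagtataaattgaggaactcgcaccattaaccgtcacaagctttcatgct
MAPKKK20: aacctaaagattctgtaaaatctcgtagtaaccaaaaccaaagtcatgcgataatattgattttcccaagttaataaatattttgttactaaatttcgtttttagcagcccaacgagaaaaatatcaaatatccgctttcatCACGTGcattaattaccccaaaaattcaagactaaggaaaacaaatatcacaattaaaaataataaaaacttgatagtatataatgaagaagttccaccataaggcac
MAPKKK21: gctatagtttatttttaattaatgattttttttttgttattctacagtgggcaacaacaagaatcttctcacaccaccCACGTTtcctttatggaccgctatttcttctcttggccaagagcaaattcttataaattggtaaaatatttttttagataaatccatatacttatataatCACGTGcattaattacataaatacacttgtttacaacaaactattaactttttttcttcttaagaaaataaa
MAPKKK17: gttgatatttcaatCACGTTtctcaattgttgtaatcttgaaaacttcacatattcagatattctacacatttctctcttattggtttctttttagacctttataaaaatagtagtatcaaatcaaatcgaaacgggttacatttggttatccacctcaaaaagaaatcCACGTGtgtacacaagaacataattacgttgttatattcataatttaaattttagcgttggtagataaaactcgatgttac
MAPKKK18: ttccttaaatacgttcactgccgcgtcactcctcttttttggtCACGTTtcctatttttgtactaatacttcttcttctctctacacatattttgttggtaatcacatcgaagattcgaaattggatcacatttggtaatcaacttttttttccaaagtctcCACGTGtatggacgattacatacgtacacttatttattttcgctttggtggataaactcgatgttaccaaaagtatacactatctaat
These windows are chr5:26772394-26772643 (plus), chr3:18649522-18649771 (minus), chr4:17423954-17424203 (minus), chr2:13800100-13800349 (minus) and chr1:1469291-1469540 (plus) of TAIR10.1, in the order of the lines.

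In MAPKKK19, MAPKKK20 and MAPKKK21 the G-box stood in the 17-base run tCACGTGcattaattac. This run was found in 3 of the 27443 promoters, which were the promoters of these 3 genes, whose coding sequences were 64.6% to 76.8% identical to each other. It was picked by aligning these promoters and is given without a test. MAPKKK20 and MAPKKK21 shared 1 more base (atCACGTGcattaattac). The run tcCACGTGt, shared by MAPKKK17 and MAPKKK18, occurred in 142 promoters (0.517%). The G-box began 72 bases before the start in MAPKKK21, 81 in MAPKKK17, 88 in MAPKKK18, 108 in MAPKKK20 and 159 in MAPKKK19. CACGTT, searched on both strands, was present in the same window of MAPKKK17, MAPKKK18, MAPKKK21 and MPK2 (4 of 10 genes, against 7.54% of all promoters), and CACATG in MPK1 and MPK2 (2 of 10, against 11.1%). Within 1000 bases, a G-box was present in 6 of the 10 genes and in 14.8% of all promoters, MAPKKK15 being added at 979 bases. The map of matches upstream of each gene shows that MKK3, MPK1 and MPK2 held no CACGTG within 1000 bases. A match is a string of letters and not a measured binding site.

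**Figure D1:**
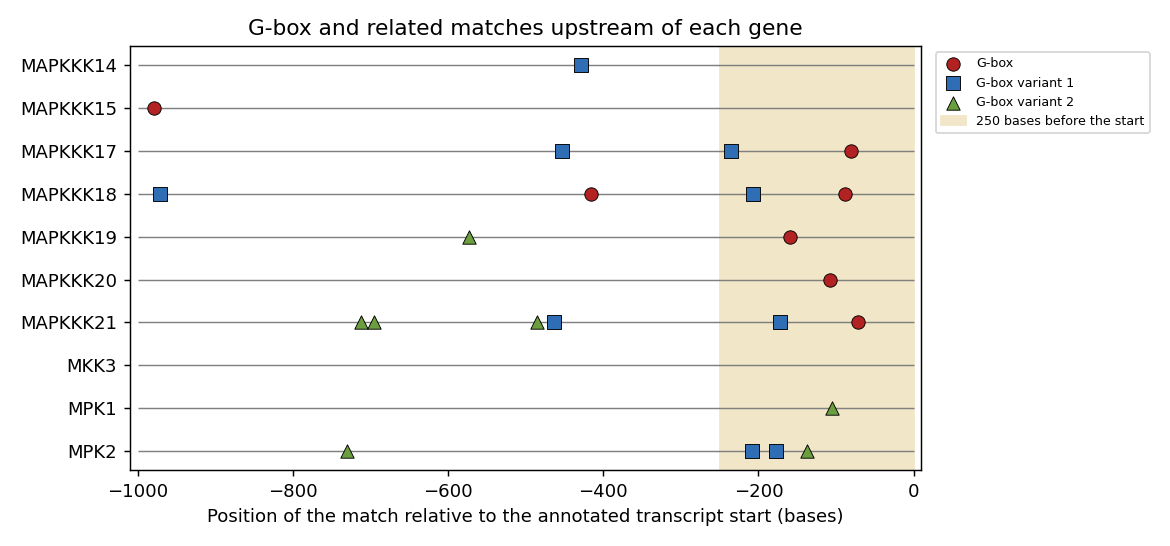
Matches to the G-box (CACGTG), variant 1 (CACGTT) and variant 2 (CACATG) in the 1000 bases before the annotated transcript start of each gene, with position in bases on the x axis, 1 row per gene and the 250-base window shaded. In the shaded window a G-box match is seen in MAPKKK17 to MAPKKK21 and in no other gene.

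MAPKKK21 was the gene of the group that differed most between JA and ctrl. It had 64 and 134 counts in the Set1_2hJA libraries, or 4.99 and 8.02 CPM, and was at 0 counts in both Set1_ctrl libraries. In Set2_2hJA it had 261, 87 and 27 counts in replicates 1, 2 and 3 (28.1, 11.7 and 3.80 CPM), against 2 counts in each of the 3 Set2_ctrl libraries (0.27, 0.269 and 0.275 CPM). The JA libraries lay above the ctrl libraries in both experiments, and within Set2_2hJA the highest and lowest library were far apart. Set against the limit of 3 counts over the group that a count of 0 allows, MAPKKK21 was 51.2-fold higher in Set1_2hJA than in Set1_ctrl. In this bound the JA counts were taken as observed, without their counting error or the spread between libraries. In Set2 the summed counts, 375 in Set2_2hJA and 6 in Set2_ctrl, gave a ratio of 58.0 (exact 95% interval for counting error alone, 26.4 to 159), and the fitted log2 fold change was 5.68 (SE 0.88). For a gene of its length the raised background of Set2_2hJA replicate 1 amounts to 12.7 counts, beside the 261 observed. With the libraries that stood apart left out, an alternative chosen after seeing the data, the bound in Set1 was 61.3-fold and the ratio in Set2 was 28.9 (12.9 to 80.5).

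MAPKKK17, which acts in abscisic acid signalling, also lay above ctrl in every JA library. Its level was 10.1 and 11.4 CPM in Set1_2hJA, against 3.93 and 3.12 CPM in Set1_ctrl. In Set2 it was 11.6, 9.02 and 4.64 CPM in Set2_2hJA replicates 1 to 3, against 2.16, 2.28 and 2.20 CPM in Set2_ctrl. The ctrl libraries of Set2 were almost alike, while its JA libraries again ranged widely. The log2 fold change was 1.59 (SE 0.25) in Set1 and 1.93 (SE 0.36) in Set2. The call of this gene depended on single libraries: it was lost in Set1 without Set1_2hJA replicate 2 (log2 fold change 1.50) and in Set2 without Set2_ctrl replicate 1 (1.92) or replicate 2 (1.95), the cause of which was not tested.

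MAPKKK18, the gene most like MAPKKK17 in coding sequence, was present at lower levels. It had 2.42 and 2.27 CPM in Set1_2hJA, against 1.20 and 0.445 CPM in Set1_ctrl, and the groups did not overlap. In Set2 it had 3.12, 1.88 and 0.844 CPM in Set2_2hJA replicates 1 to 3, against 0.675, 0.806 and 0.963 CPM in Set2_ctrl, so that replicate 3 fell among the ctrl libraries. Replicate 1 held 29 counts of this gene, against 12.0 from the background of that library. The fit over both experiments, with the experiment as a batch term, gave a log2 fold change of 1.37 (SE 0.41). This passed the rule for a call, but did so in 4 of 16 alternatives, and with the replicate number as a block (1.35) it did not.

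MAPKKK19 was at like levels in JA and ctrl libraries of Set1, and was higher in the JA libraries of Set2. It had 3 and 12 counts in Set1_2hJA (0.234 and 0.718 CPM), against 3 and 8 counts in Set1_ctrl (0.256 and 0.712 CPM), which overlapped. In Set2_2hJA it had 76, 23 and 4 counts in replicates 1 to 3 (8.17, 3.10 and 0.563 CPM), against 0, 4 and 1 counts in Set2_ctrl (0, 0.537 and 0.138 CPM). Replicate 3 exceeded the highest ctrl library only in CPM, both having 4 counts. The ratio of summed counts was 1.06 in Set1 (0.454 to 2.55) and 19.1 in Set2 (7.93 to 60.1), intervals covering counting error alone. The 76 counts of replicate 1 compare with 12.0 expected from its background, and without this library the ratio in Set2 was 8.22 (3.12 to 27.3). MAPKKK19 was too low for the filter in the Set2 fit.

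MAPKKK20 was near the limit of counting throughout. It had 9 and 6 counts in Set1_2hJA, against 3 and 3 in Set1_ctrl, and 25, 9 and 7 counts in Set2_2hJA replicates 1 to 3, against 9, 4 and 7 in Set2_ctrl. The ratio of summed counts was 1.94 in Set1 (0.712 to 6.11) and 1.90 in Set2 (1.09 to 3.43). In Set2_2hJA replicate 1 the background for its length amounts to 13.0 counts, beside the 25 observed. Without this library the ratio in Set2 was 1.22 (0.59 to 2.47). Without Set1_2hJA replicate 1 the ratio in Set1 was 1.37 (0.367 to 5.13), from 6 JA and 6 ctrl counts. The filter removed the gene from every fit of all libraries. In Set1 both JA libraries lay above both ctrl libraries, and in Set2 the groups overlapped.

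MAPKKK14 and MAPKKK15 lacked a G-box in the 250-base window. MAPKKK14 had 9.90 and 10.2 CPM in Set1_2hJA, against 7.09 and 5.43 CPM in Set1_ctrl, without overlap. In Set2 its levels were 10.4, 12.4 and 8.30 CPM in Set2_2hJA, against 7.69, 9.40 and 7.98 CPM in Set2_ctrl, and the groups overlapped. The log2 fold change was 0.66 (SE 0.23) in Set1 and 0.31 (SE 0.19) in Set2. MAPKKK15 ranged from 1.13 to 2.29 CPM over the 5 JA libraries and from 0.623 to 1.89 CPM over the 5 ctrl libraries, overlapping in both experiments. Read by same-numbered pairs in Set2, MAPKKK15 had 2.26, 2.29 and 1.13 CPM in Set2_2hJA replicates 1 to 3, against 1.89, 1.48 and 0.963 CPM in Set2_ctrl. The JA library was the higher of each Set2 pair in 6 of the 10 genes (MAPKKK14, MAPKKK15, MAPKKK17, MAPKKK19, MAPKKK20 and MAPKKK21), 4 of them among the 7 tested, where 23.0% of all tested genes had this order. In replicate 3 of MAPKKK20 both libraries of the pair had 7 counts. This too is the contrast that listed the genes, and nothing is read from the count.

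**Figure D2:**
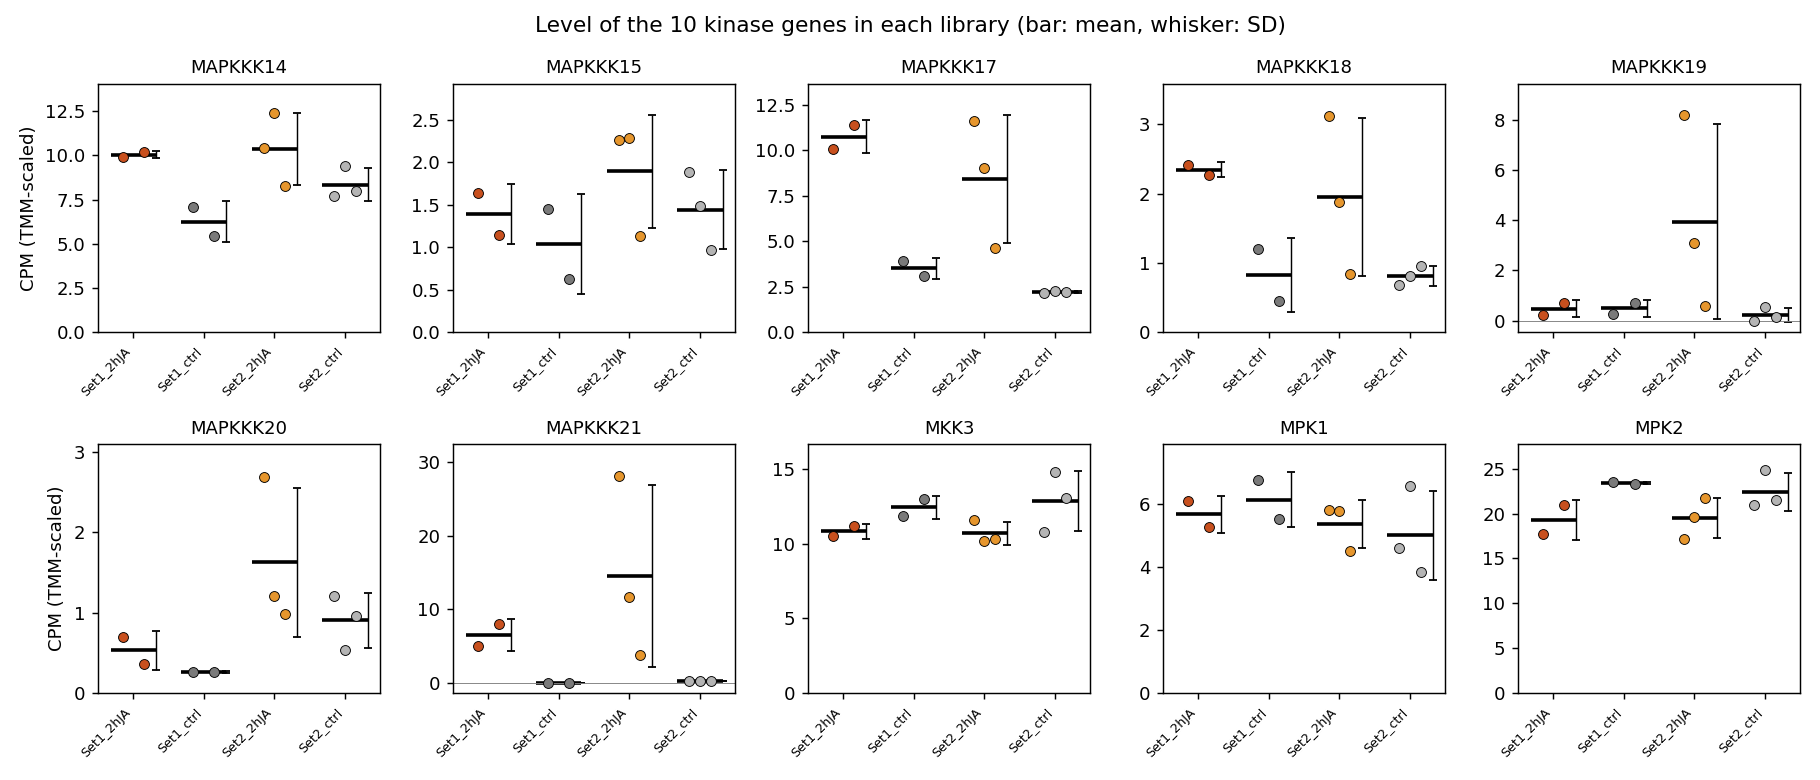
TMM-scaled CPM (y axis, linear, with 0 shown) of each of the 10 genes in each library, 1 panel per gene, with JA and ctrl libraries of Set1 and Set2 along the x axis, horizontal bars at the mean and whiskers of 1 SD (n = 2 libraries in each Set1 group, n = 3 in each Set2 group). MAPKKK21 and MAPKKK17 lie above ctrl in every JA library, whereas MKK3, MPK1 and MPK2 lie close together in all groups.

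The downstream kinases differed little between JA and ctrl libraries, with MKK3 and MPK2 slightly lower on average with JA in both experiments. The ratio of summed counts was 0.88 (0.748 to 1.04) in Set1 and 0.837 (0.704 to 0.994) in Set2 for MKK3. It was 0.833 (0.739 to 0.938) and 0.861 (0.757 to 0.979) for MPK2, and 0.914 (0.726 to 1.15) and 1.08 (0.83 to 1.4) for MPK1. These intervals cover counting error alone. MKK3 had 10.5 and 11.2 CPM in Set1_2hJA, against 11.9 and 13.0 CPM in Set1_ctrl, and 11.6, 10.2 and 10.3 CPM in Set2_2hJA, against 10.8, 14.8 and 13.1 CPM in Set2_ctrl. Its log2 fold change was -0.21 (SE 0.19) in Set1 and -0.27 (SE 0.16) in Set2. MPK2, the more abundant of the MAPK pair, had 17.7 and 20.9 CPM in Set1_2hJA, against 23.5 and 23.3 CPM in Set1_ctrl. In Set2 it had 17.2, 19.6 and 21.7 CPM in Set2_2hJA, against 20.9, 24.8 and 21.5 CPM in Set2_ctrl. The JA libraries of MKK3 and MPK2 were below ctrl without overlap in Set1 and overlapped with ctrl in Set2. MPK1 ranged from 4.50 to 6.08 CPM over the JA libraries and from 3.85 to 6.75 CPM over the ctrl libraries. The length that RSEM assigns to a gene from its transcript mixture was 1707 to 1841 bases for MKK3, 1509 to 1768 bases for MPK1 and 1563 to 1640 bases for MPK2 over the 10 libraries. For the single-exon MAPKKK genes with 1 annotated transcript this measure cannot vary.

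**Figure D3:**
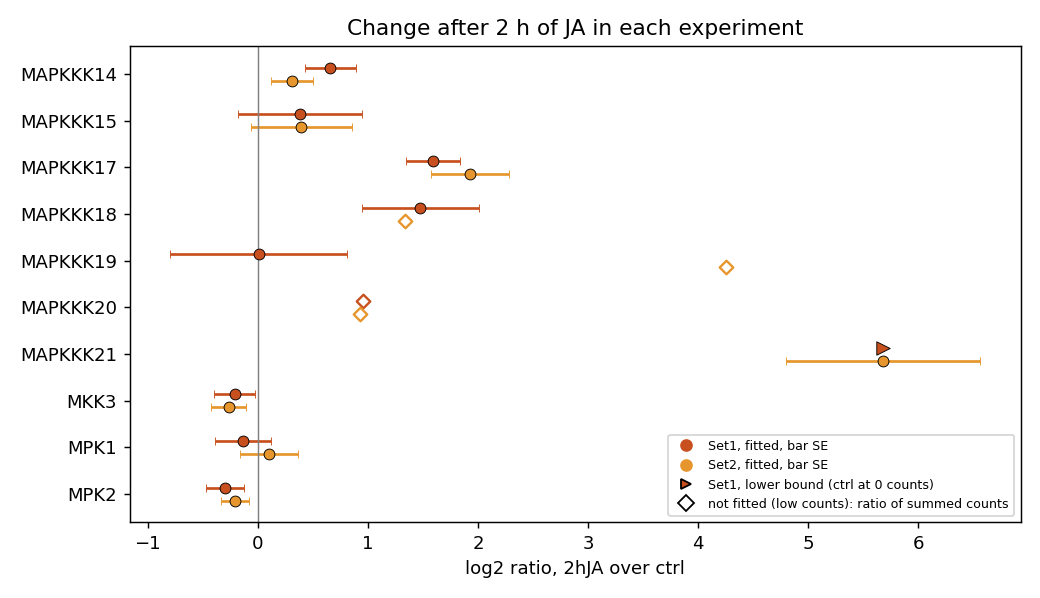
Log2 ratio of 2hJA over ctrl (x axis) for each gene in Set1 and Set2, as edgeR fold changes with bars of 1 SE, as a lower bound for MAPKKK21 in Set1, where ctrl was at 0, and as ratios of summed counts (open diamonds) where the filter on low counts left the gene out. The MAPKKK genes lie at or right of 0, and MKK3 and MPK2 lie left of 0 by at most 0.30.

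A gene counted as called where edgeR's quasi-likelihood test gave an adjusted p no higher than 0.05 together with a 2-fold or larger difference. In Set1, 2 of the 9 members that passed the filter were called higher (MAPKKK17 and MAPKKK21), where 5.14% of all 20098 tested genes were called, 2.94% as higher and 2.2% as lower. In Set2, the same 2 genes were called of the 7 members tested, against 2.54% of all genes, 1.78% as higher and 0.758% as lower. Over both experiments, 3 of 9 were called (MAPKKK17, MAPKKK18 and MAPKKK21), against 4.03% of all genes, 2.63% as higher and 1.4% as lower. The members were listed for this contrast, so nothing is read from these counts. In Set1, 5 of the 10 genes had both JA libraries above both ctrl libraries, 4 of them among the 9 tested, where 25.6% of all tested genes had this order. Another 2 genes had both JA libraries below both ctrl libraries, an order found for 23.8% of tested genes. In Set2, 3 of the 10 genes had all JA libraries above all ctrl libraries, 2 of them among the 7 tested, against 10.9% of tested genes. In both experiments together this held for 2 genes, MAPKKK17 and MAPKKK21, and for 7.04% of tested genes.

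The make-up of the 7 MAPKKK transcripts was compared on the TPM scale, which corrects for transcript length. Their summed level was 19.4 and 30.7 TPM in Set1_2hJA, against 8.70 and 7.49 TPM in Set1_ctrl, and 21.2 to 79.3 TPM in Set2_2hJA, against 14.6 to 16.0 TPM in Set2_ctrl. MAPKKK14 supplied 29.5% ± 2.26 (SD, n = 2) of the sum in Set1_2hJA and 48.8% ± 0.778 (n = 2) in Set1_ctrl, and 26.8% ± 12.3 (n = 3) in Set2_2hJA and 56.6% ± 2.97 (n = 3) in Set2_ctrl. It was thus the leading transcript among these 7 genes in every untreated library. MAPKKK21 supplied 21.5% ± 5.16 (n = 2) of the sum in Set1_2hJA and none of the measured sum in Set1_ctrl, and 31.1% ± 11.7 (n = 3) in Set2_2hJA, against 2.10% ± 0.152 (n = 3) in Set2_ctrl. MAPKKK17 supplied 33.0% ± 0.354 in Set1_2hJA and 28.6% ± 1.13 in Set1_ctrl, and 20.0% ± 3.15 in Set2_2hJA and 15.7% ± 0.700 in Set2_ctrl. These shares restate the contrast that listed the genes and are given as a description. On this scale MKK3 averaged 7.13 ± 1.85 TPM in Set1_2hJA and 7.36 ± 2.41 TPM in Set1_ctrl (SD, n = 2 each), and 9.63 ± 1.05 TPM in Set2_2hJA and 11.7 ± 1.80 TPM in Set2_ctrl (SD, n = 3 each).

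**Figure D4:**
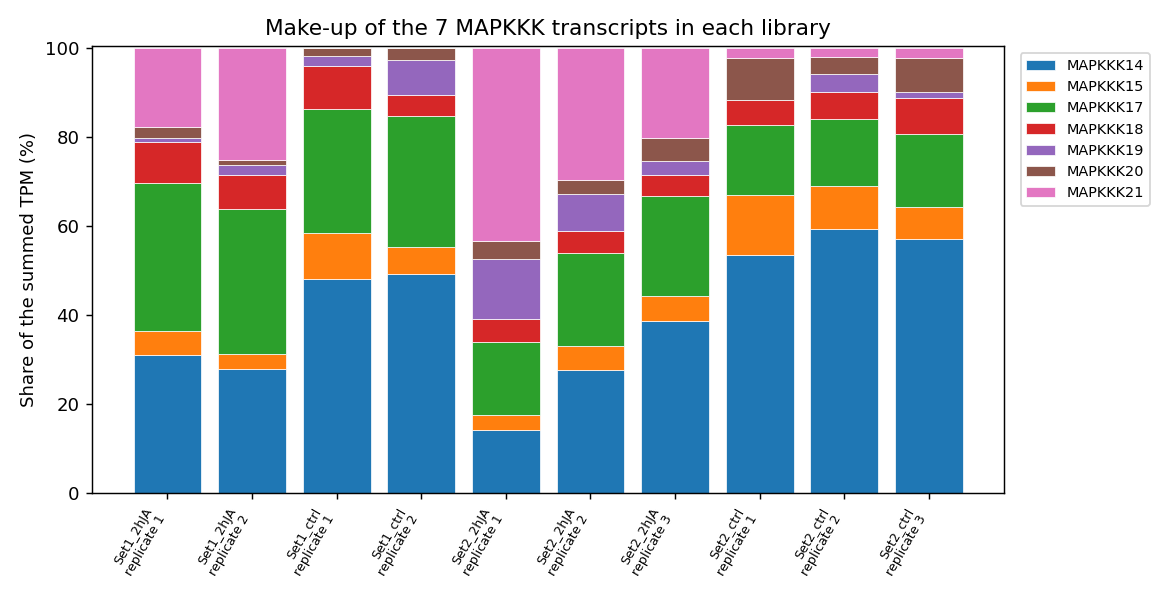
Share of the summed TPM of the 7 MAPKKK transcripts (y axis, percent) that each gene supplied in each of the 10 libraries (x axis). MAPKKK14 is the largest segment in every ctrl library, and MAPKKK21 is visible mainly in JA libraries, with 31.1% on average in Set2_2hJA.

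Whether the change after JA differed between the experiments was measured as an interaction of experiment and treatment, fitted over all genes. It is the difference of the fold changes by which the genes were listed, so the members' values are a description, given without p. The share of all 20213 genes passing an adjusted p of 0.05 was 0% in edgeR and 0.732% in DESeq2. Among the 9 members tested, the log2 fold change of MAPKKK19 was 4.05 larger in Set2 than in Set1 (SE 1.68). It was 3.14 to 5.61 larger in the 8 leave-one-out fits in which the gene passed the filter, and 1.82 with limma on log2(TPM + 1). The fit without Set2_2hJA replicate 1 is not among these 8, because the gene then failed the filter. The range therefore cannot show how far the value rests on that library. In CPM its JA libraries were all above ctrl in Set2 and 1 of 2 was in Set1. In Set2 the lowest JA library and the highest ctrl library both had 4 counts. For MAPKKK17 the difference was 0.32 (SE 0.46) and for MAPKKK18 -0.23 (SE 0.87). For MAPKKK21 the fitted difference of -3.32 (SE 2.79) rests on ctrl libraries at 0 counts and gives no measure of size. The standard errors are wide, and these values do not show that the responses were alike.

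The levels in untreated seedlings were compared between Set2_ctrl and Set1_ctrl, in which experiment, depth and sample composition cannot be told apart. Of the 6 members tested, 0 were called in edgeR, 0 were under an unadjusted p of 0.05 and 0 were called in DESeq2, where edgeR called 7.64% of all tested genes, 4.17% as higher and 3.47% as lower in Set2_ctrl. Among the 6 tested members the largest differences were those of MAPKKK17, with a log2 difference of -0.66 (SE 0.31, edgeR adjusted p = 0.185), MAPKKK15, with 0.48 (SE 0.53, adjusted p = 0.570), and MAPKKK14, with 0.42 (SE 0.22, adjusted p = 0.218). MAPKKK20, left out by the filter, averaged 0.905 CPM in Set2_ctrl and 0.262 CPM in Set1_ctrl. Scaling by library totals in place of TMM moved the median of all genes to 0.46 in this comparison, and MPK1 and MPK2 changed sign with it.

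The spread within Set2_2hJA was examined next. MAPKKK17, MAPKKK18, MAPKKK19, MAPKKK20, MAPKKK21 and MPK1 (6 of the 10 genes, 3 of them among the 7 tested) had their highest level in replicate 1 and their lowest in replicate 3, an order found for 17.2% of all 19259 genes tested in Set2. MAPKKK13, MAPKKK16, MPK7 and MPK14, the 4 further genes of the MKK3 module, had it too, and the summed CPM of JAZ10, OPR3 and LOX3 had the same order (671, 389 and 323 CPM in replicates 1, 2 and 3). Replicate 1 is also the library with the raised background. Its markers of green shoot summed to 17300 CPM, against 23800 and 24700 CPM in replicates 2 and 3, and its seed and pollen markers to 4.52 CPM, against 0.269 and 0.422 CPM. The part of these values in the spread was not tested. Per kb of transcript, MAPKKK21 held 184 counts in replicate 1, 61.4 in replicate 2 and 19.1 in replicate 3, while the genes silent in Set1 held 8.95, 0.427 and 0.22 counts per kb. MAPKKK15, MAPKKK18 and MAPKKK20, with 13.7, 21.6 and 17.3 counts per kb, came closest to the background of replicate 1. Without this library the log2 fold change in Set2 was 4.75 for MAPKKK21 and 1.61 for MAPKKK17, both still called, and MAPKKK19 no longer passed the filter over both experiments.

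**Figure D5:**
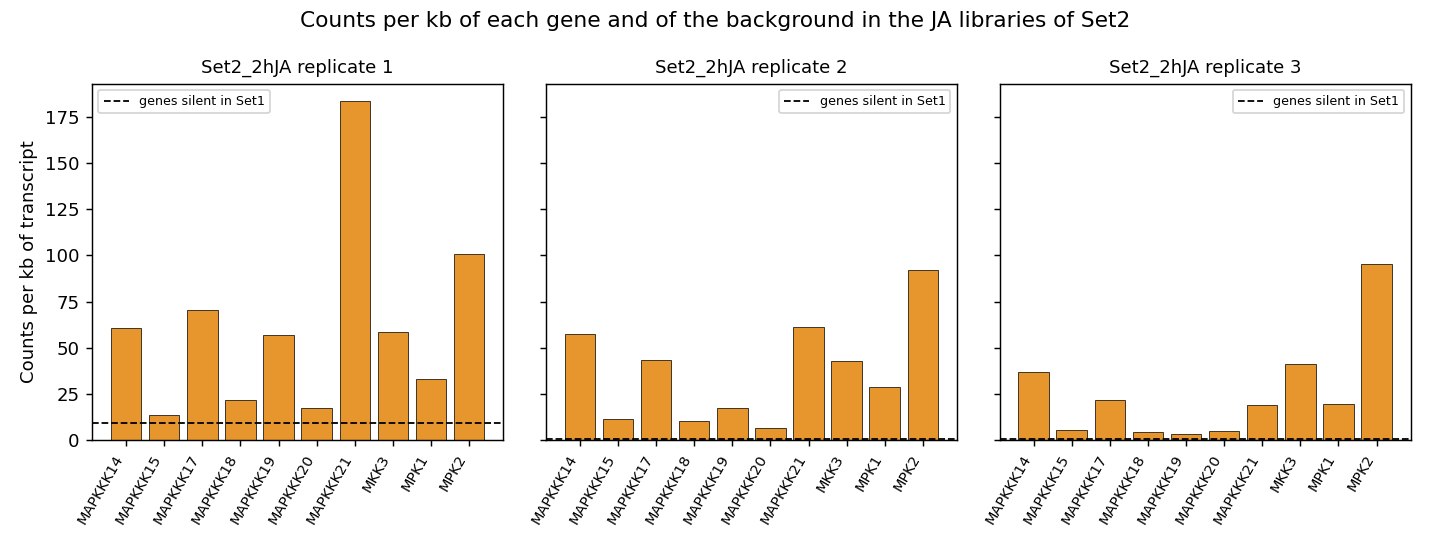
Counts per kb of transcript (y axis) for each gene in the 3 JA libraries of Set2, with a dashed line at the counts per kb of 4821 genes that had no count in Set1. The line lies at 8.95 in replicate 1, close to the bars of MAPKKK15, MAPKKK18 and MAPKKK20, and near 0 in the other libraries.

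Of the 4 further genes of the MKK3 module, MAPKKK13, MAPKKK16, MPK7 and MPK14, 2 were tested over both experiments. In edgeR, 0 were called, against 4.03% of all genes, 1 was under an unadjusted p of 0.05, and 0 were called in DESeq2. That gene was MPK7, another C-group MAPK, which had 24.1 and 25.0 CPM in Set1_2hJA, against 16.1 and 17.8 CPM in Set1_ctrl, and 21.5, 17.2 and 16.9 CPM in Set2_2hJA, against 13.4, 16.1 and 12.4 CPM in Set2_ctrl. All its JA libraries lay above ctrl within each experiment, and its log2 fold change was 0.46 (SE 0.11, edgeR adjusted p = 0.0125), under the 2-fold limit. MPK14, also of the C group, had 14 and 15 counts in Set1_2hJA, against 4 and 1 in Set1_ctrl, and 22, 3 and 1 counts in Set2_2hJA replicates 1 to 3, against 6, 4 and 1 in Set2_ctrl. MAPKKK16 had 8 and 15 counts in Set1_2hJA, against 7 and 2 in Set1_ctrl, and 32, 5 and 2 counts in Set2_2hJA, against 3, 4 and 8 in Set2_ctrl. In Set2 both genes were high in Set2_2hJA replicate 1 alone, where the background for their length is 14.8 counts for MPK14 and 14.1 for MAPKKK16, and without that library their ratios of summed counts in Set2 were 0.553 (0.129 to 1.87) and 0.71 (0.245 to 1.85). MAPKKK13 had 23 and 43 counts in Set1_2hJA, against 30 and 39 in Set1_ctrl, and 42, 17 and 15 counts in Set2_2hJA, against 21, 24 and 19 in Set2_ctrl.

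Of 37 kinases of other MAPK cascades, 33 were tested, and 1 was called higher and 0 lower over both experiments, where 2.63% of all genes were called higher and 1.4% lower. Of the 33, 10 were under an unadjusted p of 0.05 and 4 passed the adjusted p in edgeR. The gene called was MKK9, a MAPK kinase known for ethylene signalling and leaf senescence, with a log2 fold change of 1.31 (SE 0.17, edgeR adjusted p = 2.79e-04). It was called in each experiment alone as well, with 1.35 in Set1 and 1.26 in Set2. The other 3 past the adjusted p, named after their values were seen, were under 2-fold: MPK19 with 0.84 (edgeR adjusted p = 0.00132), MPK15 with -0.35 (0.018) and MPK16 with -0.36 (0.0163). Of 10 MAPK phosphatases, 8 were tested, and 0 were called in edgeR, against 4.03% of all genes, 2 were under an unadjusted p of 0.05, and 0 were called in DESeq2. AP2C1, a phosphatase that acts on stress MAPKs, was picked for mention although not called. Its log2 fold change was 0.54 (SE 0.13, edgeR adjusted p = 0.0136). The other phosphatase under the unadjusted threshold, IBR5, named after its values were seen, had -0.22 (edgeR adjusted p = 0.166). The median log2 fold change was -0.05 for the 33 kinases and -0.02 for the 8 phosphatases, against 0.01 for all genes tested. Of 6 abscisic acid-responsive genes, included because MAPKKK17 and MAPKKK18 belong to that pathway, 1 was called higher over both experiments, against 2.63% of all genes. This was RD29A, a stress gene of dehydration and cold, with 1.99 (SE 0.26, edgeR adjusted p = 2.76e-04). The 6 genes ran from -0.22 to 1.99 with a median of 0.40. In Set1 2 of the 6 were called higher, against 2.94% of all genes, and in Set2 1, against 1.78%. The log2 fold change of RD29A was 2.69 in Set1 and 1.50 in Set2. RD29A was also lower in Set2_ctrl than in Set1_ctrl, by a log2 difference of -2.13 (edgeR adjusted p = 0.00289). Without Set2_ctrl replicate 2 the count of abscisic acid-responsive genes called was 2.

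The genes whose levels ran most closely with 3 of the MAPKKKs were listed by Pearson correlation of log2(CPM + 1) over the 10 libraries, as a description, since libraries of 1 group share experiment, treatment and depth range. With MAPKKK21 these were AT3G22275 (r = 0.992), CYP94C1 (0.980), an enzyme that oxidises JA-isoleucine, and PARVUS (0.979), a glycosyltransferase of xylan synthesis. AT3G22275 averaged 7.72 CPM in Set1_2hJA and 0.0427 CPM in Set1_ctrl, and 15.3 CPM in Set2_2hJA and 0.274 CPM in Set2_ctrl, a pattern near that of MAPKKK21 itself. With MAPKKK17 they were RGL3 (0.978), a DELLA protein, and AT1G53885 and AT1G53903 (0.976 each), which had identical values and so may share reads. With MAPKKK19 they were AT5G01210 (0.947), AT1G73160 (0.945) and AT2G45930 (0.939). AT5G01210 averaged 6.65 CPM in Set2_2hJA and was at 0 in the Set1_2hJA, Set1_ctrl and Set2_ctrl groups. Genes without counts in Set1 are those by which the raised background of Set2_2hJA replicate 1 was measured. AT1G73160 and AT2G45930 were also low, with means of 2.56 and 2.01 CPM in Set2_2hJA, their highest group. The part of replicate 1 in the correlations with MAPKKK19 was not tested.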

How the data were processed

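The 10 RNA-seq libraries were poly(A)-selected with a stranded kit. Per the methods and processing notes, the authors aligned reads to TAIR10 with STAR (2.7.5a) and quantified genes with RSEM (1.3.3). The deposited table of each library holds RSEM expected counts, TPM, and transcript length. The deposited edgeR (3.36.0) tables of fold changes and p-values were not used. Groups and replicate numbers came from the sample titles.

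Expected counts were rounded, filtered with filterByExpr, TMM-scaled and tested with edgeR (4.0.16) by quasi-likelihood F test with Benjamini-Hochberg adjustment over all genes, in Set1, in Set2 and over both with the experiment as a batch term. The authors' TPM values gave the MAPKKK shares. A call needed an adjusted p of at most 0.05 and 2-fold change (interaction: adjusted p alone). Ratios of summed counts carry exact 95% intervals, and a group at 0 was set to 3 counts. Alternatives were DESeq2 (1.42.0), limma (3.58.1) on log2(TPM + 1), RLE or library-total scaling, no filter, a replicate block and leaving out each library. Same-numbered JA and ctrl libraries deviated together (r = 0.467 in Set1, with 2 pairs, and 0.246, 0.281 and 0.275 in Set2). The main fits, and the SE, calls and adjusted p taken from them, did not use these pairs. Pairs entered only in the replicate block and where same-numbered libraries were read together. The deposited names number the 2 Set1_ctrl libraries the other way round from the titles, which would give r = -0.467, so the pairing rests on Set2. The fits were also run on simulated data, with changes placed only in genes of higher counts and no library of raised background. Those runs do not speak for genes at low counts.

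Promoters were the bases before the annotated gene start in TAIR10.1, in which 99.2% of 20234 single-transcript genes had the length given in the deposited tables. The sequences and gene models are those of RefSeq, and all 10 genes matched. Motifs were searched on both strands, and coding identity was taken from global alignments (Biopython 1.88). The members and the pathway lists were chosen with earlier results of these data known. Named genes were the members, the rest of the MKK3 module, pathway genes called over both experiments, AP2C1, and the 3 most correlated genes of MAPKKK17, MAPKKK19 and MAPKKK21.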

Additional observations from a re-analysis of the deposited data

How the results depend on the processing

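MAPKKK21 passed the rule for a call in 10 of 10 alternatives in Set1, 12 of 12 in Set2 and 16 of 16 over both experiments, and MAPKKK17 in 8 of 10, 10 of 12 and 16 of 16. These calls concern the contrast that listed the genes and support nothing. The number of members called in Set1 was 1 with limma on log2(TPM + 1) and 1 to 2 when each library was left out, which leaves 1 library in a group that is assumed to vary like the other group. Leaving out each library gave 1 to 3 in Set2, 2 to 3 over both experiments and 1 to 2 for the abscisic acid-responsive genes (2 without Set2_ctrl replicate 2). MAPKKK19 was called in Set2 with no filter and without Set2_2hJA replicate 3, and over both experiments with DESeq2. With the replicate block MAPKKK18 lost its call over both experiments (log2 fold change 1.35), and the block changed no other call of a member. In the interaction, values past no threshold changed sign for MAPKKK21 with limma (0.75) and for MPK2 with library totals (-0.0368) and limma (-0.11). Leaving out each library moved the interaction from -0.74 to 0.45 for MAPKKK15, -1.11 to 0.28 for MAPKKK18, -0.19 to 0.0358 for MKK3 and -0.0512 to 0.20 for MPK2. In Set2_ctrl against Set1_ctrl the sign changed for MAPKKK17 with limma (0.0237), for MPK1 with library totals (0.19) and limma (0.32), and for MPK2 with library totals (0.40) and limma (0.59). There, leaving out each library gave -0.0049 to 1.18 for MAPKKK15 and -0.0447 to 0.17 for MKK3. The share of all genes passing the interaction was 0.259% with no filter and 0.302% with the replicate block. The cause of these changes was not tested. MAPKKK20 had 3 to 25 counts a library.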
